A study of Mus musculus with 8 samples.

Results

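The genes described here are 3 members of the Cyp2j epoxygenase family (Cyp2j5, Cyp2j6 and Cyp2j9), 2 further cytochrome P450 enzymes of the same wider family (Cyp2u1 and Cyp2r1) and the 2 epoxide hydrolases Ephx1 and Ephx2. They were chosen by name, with earlier results of these data known. All 7 were found by their Ensembl identifiers among 14317 mouse genes of the normalized counts table. All 7 were among the 14312 genes that had a mean of at least 10 normalized reads and were tested. The mice were females labelled WT in both groups. At 7 weeks of age they received a silastic pellet that was either empty (Veh) or filled with 10 mm of dihydrotestosterone (DHT), an androgen that cannot be converted to estrogen. All were kept on a western diet (WD) for 8.5 weeks, and the pellets were renewed during that time. Liver RNA of 8 mice was sequenced, 4 in each group, and each mouse gave its own library without pooling. The comparison asks how DHT under WD changed the liver's RNA, here for enzymes that make and break down oxygenated fatty acids.

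Cyp2j enzymes insert an oxygen atom into a double bond of arachidonic acid and so make epoxyeicosatrienoic acids, short-lived lipid signals with effects on vessels and inflammation. Soluble epoxide hydrolase, the product of Ephx2, opens these epoxides to diols, whereas microsomal epoxide hydrolase, the product of Ephx1, is best known for opening epoxides of foreign compounds. Cyp2u1 hydroxylates long-chain fatty acids near their end, and Cyp2r1 carries out the hepatic step of vitamin D activation, its 25-hydroxylation. All are found in the liver, where hepatocytes carry most of the P450 enzymes.

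The libraries held between 14240001 and 17815944 reads on mouse genes in Con-Veh and between 13123962 and 15205299 in Con-DHT, and spike-in RNA took 1.68% to 3.61% of the reads. Of 8 hepatocyte markers, 7 were measured, their summed level ranged from 870056 to 1666450 normalized reads in Con-Veh and from 925556 to 1153970 in Con-DHT, and 0 passed the test by limma (1 at an unadjusted p of at most 0.05, 1 by edgeR and 2 by DESeq2). Alb alone made up most of that sum, with 539803 to 1275380 in Con-Veh and 549197 to 685092 in Con-DHT. The summed level of 8 Kupffer cell and macrophage markers was 6513 to 8043 in Con-Veh and 4395 to 6014 in Con-DHT, most of it from Clec4f and Cd5l. By limma 4 of the 8 fell, Clec4f, Vsig4, Cd68 and Cd5l, of which Clec4f kept its call for 2 of 8 libraries left out in turn. All 8 had a negative log2 fold change and an unadjusted p of at most 0.05, and DESeq2 called 5. The sum of 8 endothelial markers was 4010 to 4492 in Con-Veh against 3143 to 3599 in Con-DHT, and by limma Stab2 and Lyve1 fell. Lyve1, whose groups overlapped, missed the threshold by edgeR (adjusted p = 0.052) and for 6 of 8 libraries left out. Of the 8, 5 had an unadjusted p of at most 0.05, and DESeq2 called 3. Over all tested genes limma called 7.21%, edgeR 7.15% and DESeq2 11.0%. An unadjusted p of at most 0.05 was reached by 3321 of all 14312. With libraries scaled by the spike-ins, 0 of the macrophage, 1 of the endothelial and 1 of the stellate cell markers passed, beside 640 of all 14312 tested genes. The sum of 8 stellate cell markers varied widely in Con-Veh, from 2495 to 7140, and was 3734 to 4570 in Con-DHT. Limma, edgeR and DESeq2 called 0 of 8 stellate cell, 6 cholangiocyte and 2 lymphocyte markers (1, 1 and 2 at an unadjusted p of at most 0.05), and the 8 kidney markers listed were not analysed here. In whole liver, fewer cells of a type and less RNA per cell cannot be told apart, and the part of these shifts in the results below was not tested.

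DHT livers differed from vehicle livers in 2 of the 7 genes, Cyp2u1 and Cyp2j6, and both rose. The test was limma on log2(value + 1) over all tested genes with p-values adjusted by the Benjamini-Hochberg method and called at 0.05 or less, by which 7.21% of all tested genes were called, 4.6% as higher in Con-DHT. Both count tests, run on the whole reads recovered from the table, also called Cyp2u1 and Cyp2j6 alone among the 7, beside 7.15% of all genes by edgeR and 11.0% by DESeq2. The 4 Con-DHT values lay wholly above the 4 Con-Veh values for the same pair of genes, whereas the groups did not overlap in 15.1% of all tested genes, 8.49% with Con-DHT higher. Over the 7 genes the fitted difference was positive for 5 and negative for 2, with a median of 0.24 on the log2 scale, beside a median of -0.01 over all tested genes. The median standard error was 0.11 for the 7 genes and 0.14 for all. An unadjusted limma p of at most 0.05 was reached by 4 of the 7 genes and by 3321 of all 14312.

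**Figure D1:**
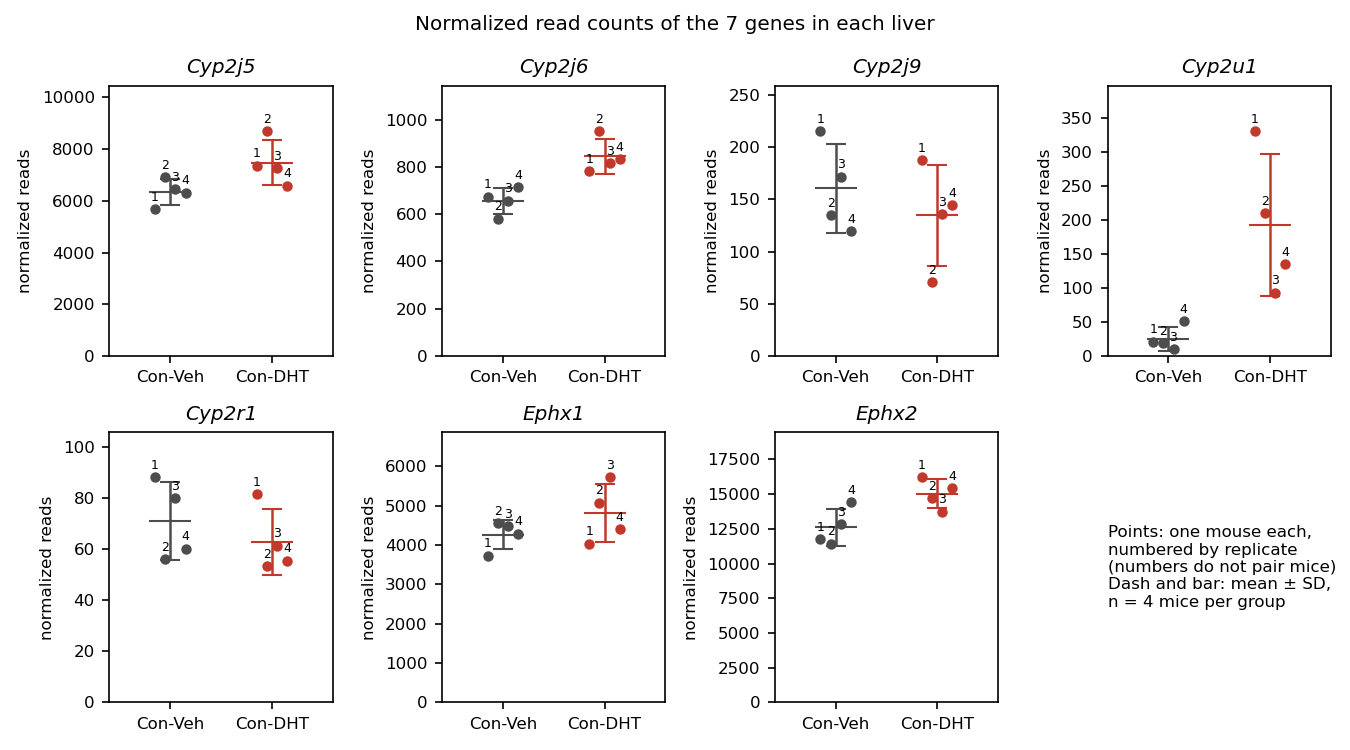
Normalized reads (vertical axes, from 0, with a separate scale for each gene) in each of the 4 Con-Veh and 4 Con-DHT livers, 1 point per mouse, with the mean and SD of each group. The Con-DHT points of Cyp2u1 (92.9 to 331) and of Cyp2j6 (782 to 952) all lie above the Con-Veh points (9.98 to 51.3 and 581 to 714), and the groups overlap for the other 5 genes.

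Cyp2u1, the fatty acid hydroxylase, had the lowest values of the 7 genes in vehicle livers and the largest difference between the groups. In Con-Veh replicates 1 to 4 it had 20.9, 18.3, 9.98 and 51.3 normalized reads, from 19, 19, 10 and 59 reads. In Con-DHT replicates 1 to 4 it had 331, 210, 92.9 and 135 normalized reads, from 337, 217, 91 and 124 reads. The highest vehicle liver remained below the lowest DHT liver, although the 4 DHT livers differed widely among themselves. The mean rose from 25.1 ± 18.1 to 192 ± 104 (SD, n = 4 each), a log2 fold change of 2.96 with a standard error of 0.48 and a fold of 7.78 (95% interval 3.69 to 16.4), with an adjusted p of 0.0057 by limma. Ordered from the largest increase, it stood in place 42 of the 14312 tested genes. The exact two-sided permutation test gave p = 0.029, the smallest value that 4 against 4 samples allow. The adjusted p was 0.0073 by edgeR and 6.5e-05 by DESeq2, and it lay between 0.0031 and 0.020 when each library was left out in turn.

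Cyp2u1 lies on the minus strand of chromosome 3, at chr3:131288441-131303227 in GRCm38, with 6 exon blocks that cover 5242 bases. Of these, 548 bases (10.5%) are also annotated as exon of the antisense gene 4930534D22Rik on the opposite strand. The library kit was not stated to keep the strand, so reads of these bases from the pair of genes cannot be told apart, and the antisense gene was not analysed here. In addition, 14.8% of the 50-base windows of its transcript and 9.39% of its 150-base windows also occur in transcripts of other genes, whereas the authors counted only uniquely mapped reads. The nearest tested genes on each side gave no such difference. Hadh, a mitochondrial enzyme of fatty acid oxidation 16.3 kb away, had a log2 fold change of -0.09 (standard error 0.14, adjusted p = 0.76), and Sgms2, a sphingomyelin synthase 15.8 kb away, one of 0.07 (standard error 0.14, adjusted p = 0.82).

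Cyp2j6, a Cyp2j gene expressed in many tissues, rose by a much smaller amount. Its 4 Con-Veh values were 674, 581, 657 and 714 normalized reads, and its 4 Con-DHT values were 782, 952, 815 and 833. The groups did not overlap, and Con-DHT replicate 2 was the highest. The mean rose from 656 ± 55.6 to 846 ± 74.2 (SD, n = 4 each), a log2 fold change of 0.36 (standard error 0.09) and a fold of 1.29 (95% interval 1.12 to 1.48). Its adjusted p was 0.035 by limma, 0.034 by edgeR and 0.0084 by DESeq2, and the exact permutation p was again the smallest possible, 0.029. Leaving out each library in turn kept its call in 2 of 8 cases. Without Con-Veh replicates 1, 2 or 3 the adjusted p was 0.059, 0.092 and 0.069, and without Con-DHT replicates 2, 3 or 4 it was 0.088, 0.057 and 0.065, whereas it was lowest, at 0.047, without Con-Veh replicate 4. It was 0.074 when limma was run without its intensity trend, and when the libraries were scaled by the spike-ins the groups overlapped (exact permutation p = 0.11).

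**Figure D2:**
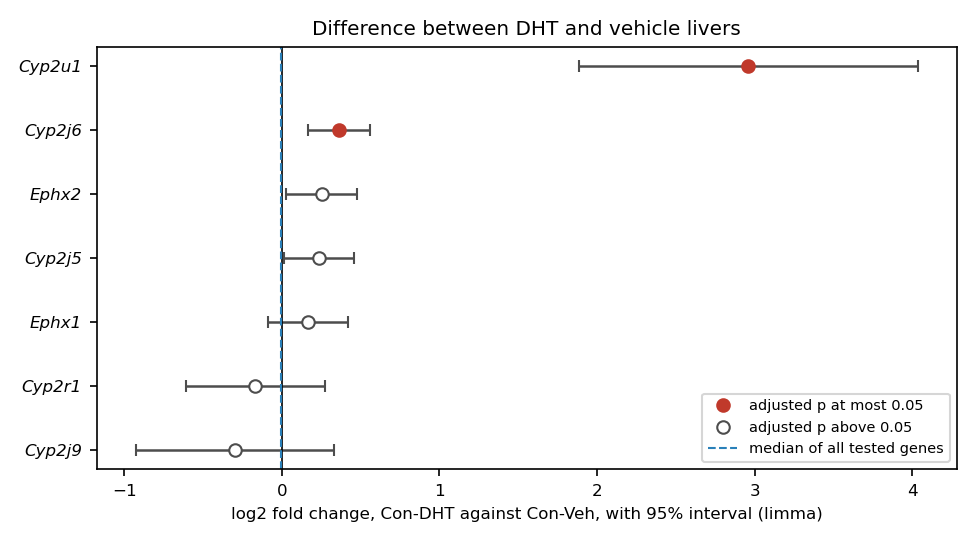
Log2 fold change of Con-DHT against Con-Veh for each of the 7 genes with its 95% interval (horizontal axis, limma), in order of size, with filled points for an adjusted p of at most 0.05 and a dashed line at the median of all tested genes (-0.01). Cyp2u1 stands apart at 2.96, the interval of Cyp2j6 spans 0.17 to 0.56, and the intervals of Ephx1, Cyp2r1 and Cyp2j9 include 0.

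Cyp2j5, the most abundant epoxygenase of the set and a major Cyp2j of mouse liver and kidney, did not pass the test. It had 5671, 6902, 6442 and 6309 normalized reads in the Con-Veh mice and 7365, 8701, 7262 and 6590 in the Con-DHT mice. The lowest DHT liver lay within the vehicle range and the other 3 lay above it. The means were 6331 ± 508 and 7479 ± 884 (SD, n = 4 each), with a log2 fold change of 0.24, a 95% interval of 0.01 to 0.46 and an adjusted p of 0.19 (exact permutation p = 0.057).

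Cyp2j9, first known as a Cyp2j of the brain, did not pass the test, and its values varied most from mouse to mouse among the 3. Its values were 215, 135, 172 and 119 normalized reads in Con-Veh and 187, 70.6, 136 and 145 in Con-DHT. The groups overlapped over most of their range. The means were 160 ± 42.8 and 135 ± 48.2 (SD, n = 4 each), the log2 fold change was -0.30 with a 95% interval of -0.93 to 0.33, and the adjusted p was 0.58. The log2 fold change was -0.02 without Con-DHT replicate 2, the lowest liver, -0.14 without Con-Veh replicate 1, the highest, -0.48 without Con-DHT replicate 1, and -0.09 with libraries scaled by the spike-ins, so its size rests on single mice.

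The 3 Cyp2j genes lie next to each other on the minus strand of chromosome 4, Cyp2j6 at chr4:96516138-96553661, Cyp2j9 at chr4:96568429-96591578 and Cyp2j5 at chr4:96628773-96664154 (GRCm38), each with 9 exon blocks. Cyp2j9 stands between the other two, 14.8 kb from Cyp2j6 and 37.2 kb from Cyp2j5. At most 0.42% of the 50-base windows of any of the 3 transcripts, and none of the 150-base windows, occur in another gene's transcripts. Few of their reads could therefore fit another gene equally well. The further family members Cyp2j7, Cyp2j8, Cyp2j11, Cyp2j12, Cyp2j13, Cyp2j14 and Cyp2j15 were not analysed here, and neither were the epoxide hydrolase genes Ephx3 and Ephx4. Outside the cluster, Hook1, 490.7 kb from Cyp2j6, had an adjusted p of 0.31, and Gm12696, 857 kb from Cyp2j5, rose from 31.6 ± 5.00 to 64.6 ± 12.8 (SD, n = 4 each, log2 fold change 1.00, adjusted p = 0.016).

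The stretches just before the starts of Cyp2j6, which rose, and Cyp2j5, its abundant neighbour that was not called, are shown to set the cluster's upstream letters side by side. They come from RefSeq on GRCm38.p6, read on the minus strand from 5′ to 3′. The Cyp2j6 stretch spans chr4:96553662-96553901 and the Cyp2j5 stretch chr4:96664155-96664369. Capitals mark the nuclear receptor half-site AGGTCA, which Cyp2j5 holds.
Cyp2j6: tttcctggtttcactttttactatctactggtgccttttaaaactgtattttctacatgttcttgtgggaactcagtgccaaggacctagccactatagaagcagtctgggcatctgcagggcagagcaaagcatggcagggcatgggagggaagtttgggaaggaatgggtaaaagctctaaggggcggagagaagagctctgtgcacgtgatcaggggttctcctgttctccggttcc
Cyp2j5: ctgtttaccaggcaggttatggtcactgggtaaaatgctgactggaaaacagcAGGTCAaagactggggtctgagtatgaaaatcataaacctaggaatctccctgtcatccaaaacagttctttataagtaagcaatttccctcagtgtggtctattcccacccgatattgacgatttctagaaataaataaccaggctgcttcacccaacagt
The Cyp2j5 stretch holds 1 copy of AGGTCA and the Cyp2j6 stretch none. Searched on both strands in the 250 bases before the start, AGGTCA occurred in 14.0% of 32851 RefSeq promoters. RefSeq windows were found for 5 of the 7 genes, not for Cyp2u1 or Ephx2, and the 250 bases before the RefSeq starts of Cyp2j9, Cyp2r1 and Ephx1 held no AGGTCA. For Ephx1 that start lies inside the longer gene span given below, so its window is not the stretch before the span. The letters TTCNNNGAA, a common form of the STAT5 site, were in none of the 5 windows and in 7.02% of all. These matches describe the letters and were not tested for binding.

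Ephx2, whose product breaks down the epoxides made by the Cyp2j enzymes, was the most strongly expressed of the 7 genes and did not pass the test. It had 11775, 11434, 12821 and 14428 normalized reads in Con-Veh and 16196, 14710, 13730 and 15409 in Con-DHT. Con-Veh replicate 4 exceeded the lowest DHT liver, and the other vehicle livers lay below all 4 DHT livers. The means were 12614 ± 1346 and 15011 ± 1048 (SD, n = 4 each), with a log2 fold change of 0.25 (95% interval 0.03 to 0.48). The adjusted p was 0.16 by limma and 0.088 by DESeq2, and the exact permutation p was 0.057. The gene lies at chr14:66084374-66124500 (GRCm38) with 21 exon blocks, between Gulo, the vitamin C synthesis enzyme, and Chrna2, an acetylcholine receptor subunit. Chrna2, 10.5 kb away, rose from 199 ± 30.4 to 355 ± 41.0 (SD, n = 4 each, log2 fold change 0.84, adjusted p = 0.0044), and Gulo had a log2 fold change of 0.10 (adjusted p = 0.56).

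Ephx1, the microsomal hydrolase, had 3734, 4552, 4475 and 4288 normalized reads in Con-Veh and 4038, 5082, 5717 and 4406 in Con-DHT. A pair of DHT livers lay above all vehicle livers and the other pair within their range. The means were 4263 ± 369 and 4811 ± 743 (SD, n = 4 each), the log2 fold change was 0.17 (95% interval -0.09 to 0.42) and the adjusted p was 0.43. It lies at chr1:180976210-181020904 (GRCm38), and 72 of its exon bases (3.69%) are also annotated as the pseudogene Gm36961 on the same strand. Its neighbours Tmem63a and 9130409I23Rik had log2 fold changes of 0.14 and 0.06, with adjusted p of 0.45 and 0.85.

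Cyp2r1, the vitamin D 25-hydroxylase, had 87.9, 56.0, 79.9 and 60.1 normalized reads in Con-Veh and 81.4, 53.2, 61.2 and 55.4 in Con-DHT. The groups overlapped almost fully, with means of 71.0 ± 15.4 and 62.8 ± 12.8 (SD, n = 4 each). The log2 fold change was -0.17 (95% interval -0.61 to 0.27, adjusted p = 0.67), and it was 0.03 when the libraries were scaled by the spike-ins, so its sign depends on the scaling. It lies at chr7:114549682-114562972 (GRCm38). Gm15500, the next tested gene 142 kb away, rose from 71.7 ± 16.4 to 246 ± 39.7 (SD, n = 4 each, log2 fold change 1.78, adjusted p = 0.00049), whereas Pde3b, a phosphodiesterase gene 10.4 kb away on the other side, had a log2 fold change of -0.01 (adjusted p = 0.97).

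To compare levels between genes, the values were divided by each gene's exon length. In Con-Veh the order of the mean levels was Ephx2 (5078 ± 542 normalized reads per kb), Cyp2j5 (2700 ± 217), Ephx1 (2186 ± 189), Cyp2j6 (182 ± 15.4), Cyp2j9 (48.1 ± 12.8), Cyp2r1 (33.6 ± 7.28) and Cyp2u1 (4.80 ± 3.45; SD, n = 4 each). The ranges of neighbours in this order were separate except those of Cyp2j9 and Cyp2r1, although Cyp2j9 was the higher in 4 of 4 libraries. In Con-DHT the first 4 places were unchanged, and the ranges of Cyp2j5 (3189 ± 377) and Ephx1 (2467 ± 381) overlapped, with Cyp2j5 higher in 4 of 4 libraries. The last 3 could not be ordered there. Cyp2u1 at 36.6 ± 19.9 normalized reads per kb stood between Cyp2j9 at 40.3 ± 14.5 and Cyp2r1 at 29.7 ± 6.08, and each exceeded the next in 2 of 4 libraries. Taken over all 8 libraries, 99.1% of the tested genes had a lower mean normalized read count than Ephx2, 98.1% than Cyp2j5 and 97.1% than Ephx1, against 37.3% for Cyp2u1 and 29.8% for Cyp2r1.

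**Figure D3:**
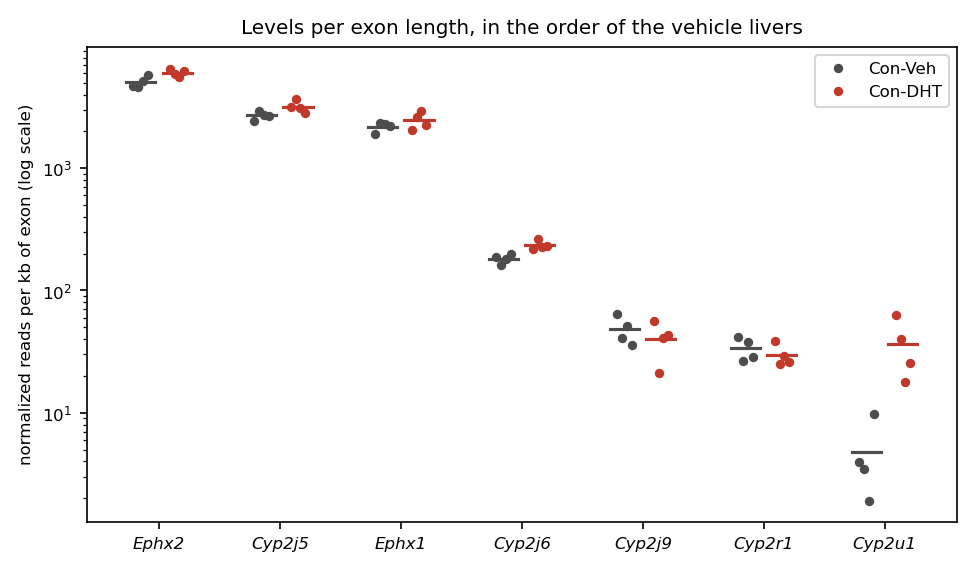
Normalized reads per kb of exon (vertical axis, log scale) of the 7 genes in each Con-Veh and Con-DHT library, with lines at the group means, ordered by the Con-Veh mean. Ephx2, Cyp2j5 and Ephx1 stand at 1915 or more in every library, and Cyp2u1 moves from 1.90 to 9.80 in Con-Veh into the range of Cyp2j9 and Cyp2r1 in Con-DHT.

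Ratios between members within a library, taken on values + 1, depend on the scaling of the libraries only through that added constant, which matters for Cyp2u1, and 5 were compared by exact two-sided permutation with adjustment over the 5. The mean log2 ratio of Cyp2u1 to Cyp2j5 was -8.15 ± 0.957 in Con-Veh and -5.43 ± 0.744 in Con-DHT (SD, n = 4 each), and that of Cyp2r1 to Cyp2u1 was 1.67 ± 1.11 and -1.46 ± 0.668. For both, the 8 libraries separated fully by group (permutation p = 0.029, adjusted p = 0.071, which misses 0.05). With only these ratios of the 5 at the smallest possible p, 0.071 was the lowest adjusted p they could reach. The miss is therefore a limit of the test. The difference in the ratio of Cyp2u1 to Cyp2j5 was 2.72, and 2.78 or 2.49 with 0.1 or 5 added instead of 1. These ratios are of read counts, not of levels per length, and so give no order of the genes. The log2 ratio of Cyp2j6 to Cyp2j5 was -3.27 ± 0.220 in Con-Veh and -3.14 ± 0.110 in Con-DHT, a difference of 0.13 (permutation p = 0.40, adjusted p = 0.50), so a larger rise of Cyp2j6 than of Cyp2j5 was not shown. The ratio of Cyp2j9 to Cyp2j5 differed by -0.53 (permutation p = 0.31, adjusted p = 0.50). The ratio of the microsomal to the soluble hydrolase, Ephx1 to Ephx2, differed by -0.09 (permutation p and adjusted p = 0.66).

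Within the pathway around these enzymes, genes were counted by lists. Limma called 66.7% of the tested Cyp2c genes, 23.1% of the Cyp4 genes and 15.8% of the genes that make, release or return arachidonate. It called 6.25% of the cyclooxygenase and lipoxygenase list, 33.3% of the vitamin D list and 13.3% of the list around Ephx1. Over all tested genes it called 7.21%. The lists were chosen with earlier results of these data known, so these shares describe the lists and test nothing about them. The Cyp4, arachidonate and vitamin D shares also include genes, named below, that met the filter only through Con-DHT. The Cyp2c genes, which share arachidonate epoxidation with Cyp2j, had 12 tested members of 16 listed, of which 7 fell and 1 rose, and their median log2 fold change was -0.85. With libraries scaled by the spike-ins 4 fell and 1 rose, and the calls of Cyp2c29, Cyp2c37 and Cyp2c23 were lost (adjusted p of 0.14, 0.061 and 0.83). Cyp2c23 also lost its call without Con-Veh replicates 3 or 4 and without Con-DHT replicates 2, 3 or 4, with an adjusted p of 0.074 to 0.088. Cyp2c69 fell from 5682 ± 1261 to 358 ± 426 normalized reads (SD, n = 4 each, log2 fold change -4.67, adjusted p = 0.0020) and Cyp2c40 from 2306 ± 458 to 326 ± 339 (log2 fold change -3.29, adjusted p = 0.0047). In both genes every DHT liver lay below every vehicle liver. Cyp2c68 (log2 fold change -1.14) and Cyp2c39 (-1.70) also fell, the latter with an adjusted p of 0.018 that became 0.051 without Con-Veh replicate 2 and 0.057 without Con-Veh replicate 4. Cyp2c67 rose from 1609 ± 300 to 2695 ± 517 (SD, n = 4 each, log2 fold change 0.75, adjusted p = 0.022, and 0.060 without Con-DHT replicate 2). The Cyp2c genes are close copies of each other, and the authors counted only uniquely mapped reads, so reads that fit several of them may be missing. How much sequence they share was not analysed here.

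The Cyp4 genes encode hydroxylases that, like Cyp2u1, act near the end of fatty acids. Of 16 listed, 13 were tested, 3 rose and none fell, with a median log2 fold change of 0.07. Cyp4a12a went from 2.20 to 6.09 normalized reads in the vehicle livers to between 195 and 1738 in the DHT livers (log2 fold change 7.45, adjusted p = 0.00021). Its near copy Cyp4a12b went from 0.87 to 2.90 to between 89.8 and 548 (adjusted p = 0.00015). Both met the filter, a mean of at least 10 normalized reads, only through Con-DHT, so they could be called only as rising. Con-DHT replicate 3 was the lowest of the 4 DHT livers for both, as it was for Cyp2u1, and the vehicle values rest on so few reads that the fitted fold depends on the pseudocount. Cyp4a32 rose from 242 ± 56.4 to 550 ± 104 (SD, n = 4 each, log2 fold change 1.19, adjusted p = 0.0046).

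The electron donors of the P450 enzymes gave no call. All 9 listed genes were tested, among them Por, the P450 reductase (log2 fold change 0.01, adjusted p = 0.98), and 0 passed by limma, edgeR or DESeq2 (1 at an unadjusted p of at most 0.05), with a median log2 fold change of 0.01. Over all tested genes, 3321 of 14312 had an unadjusted p that low. Of the genes that make arachidonate, release it from lipids or return it to them, 19 of 22 were tested and 3 rose. Fads2, the first desaturase on the way to arachidonate, rose from 7762 ± 646 to 12067 ± 893 (SD, n = 4 each, log2 fold change 0.64, adjusted p = 0.0032) and did so whichever library was left out. Acsl4, an arachidonate-preferring acyl-CoA synthetase (log2 fold change 0.58, adjusted p = 0.034), and Mboat1, a lysophospholipid acyltransferase (1.40, adjusted p = 0.021), also rose. Mboat1, with a Con-Veh mean of 5.16, met the filter only through Con-DHT and so could be called only as rising. Acsl4 kept its call only without Con-Veh replicate 1 or Con-DHT replicate 2, with an adjusted p of up to 0.087 in the other fits that left out a library. Mboat1 lost its call without Con-Veh replicates 2 or 4 or Con-DHT replicates 2 or 4, with an adjusted p of up to 0.066. It also lost its call by limma after quantile normalization (adjusted p = 0.051) and with the replicate block (0.078).

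In the competing cyclooxygenase and lipoxygenase branch, 16 of 24 listed genes were tested and 1 was called, 6.25% beside 7.21% of all tested genes. It was Ptgs1, the constitutive cyclooxygenase, which fell from 245 ± 4.93 to 157 ± 24.5 (SD, n = 4 each, log2 fold change -0.65, adjusted p = 0.012). Macrophage markers fell in the same libraries, as given above, and their part was not tested. Limma and edgeR called 0 of 10 tested eicosanoid receptor and channel genes, and DESeq2 called 1. Over all tested genes, 3321 of 14312 had an unadjusted p of at most 0.05, and of these 10 genes 3 did. Among them Ppara, a nuclear receptor for fatty acids, had 2095 ± 388 and 2857 ± 294 normalized reads (SD, n = 4 each, log2 fold change 0.46, adjusted p = 0.070 by limma). Ppara was the gene that DESeq2 called (adjusted p = 0.027).

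Of 10 genes of vitamin D activation and transport, which act beside Cyp2r1, 6 were tested. Cyp3a11, which also hydroxylates vitamin D, fell from 26665 ± 6850 to 13365 ± 3748 (SD, n = 4 each, log2 fold change -1.01, adjusted p = 0.028). That call was lost without Con-Veh replicate 3 (0.068), Con-Veh replicate 4 (0.075), Con-DHT replicate 3 (0.062) or Con-DHT replicate 4 (0.056). Lrp2, an uptake receptor for the vitamin's carrier protein, was at 22.0, 0, 2.99 and 0 normalized reads in Con-Veh and 12.8, 39.7, 82.7 and 95.7 in Con-DHT, so the groups overlapped. With a Con-Veh mean of 6.25, it met the filter only through Con-DHT and so could be called only as rising. Its adjusted p was 0.042 by limma, 0.065 by edgeR and 0.18 by DESeq2, and up to 0.11 in the 6 fits, of 8 that left out a library, that lost the call. Gc, the carrier protein itself, named after its values were seen, went from 88493 ± 3820 to 64509 ± 5078 without overlap between the groups (SD, n = 4 each, log2 fold change -0.46). It did not pass by limma (adjusted p = 0.075) and did by edgeR (0.027) and DESeq2 (1.1e-06), so that the list's 2 calls by both count tests were Cyp3a11 and Gc. Cyp27a1, another liver 25-hydroxylase, had 6828 ± 414 and 6808 ± 1028 normalized reads (SD, n = 4 each, adjusted p = 0.96). Among the 15 genes that handle reactive compounds together with Ephx1, all tested, 1 rose and 1 fell. Gstp1, a glutathione transferase, rose from 2025 ± 129 to 7461 ± 2389 (SD, n = 4 each, log2 fold change 1.83, adjusted p = 0.00060). Nfe2l2, a regulator of the antioxidant response, fell from 984 ± 68.1 to 745 ± 68.3 (log2 fold change -0.40, adjusted p = 0.021, which was 0.053 without Con-Veh replicate 3 and 0.065 without Con-Veh replicate 4). With libraries scaled by the spike-ins the calls of Fads2, Acsl4, Ptgs1, Cyp3a11 and Nfe2l2 were also lost. Their adjusted p there was 0.12, 0.15, 0.78, 0.18 and 0.91, from a variance set by mean level and not by each gene's own spread.

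How firm the calls of the 7 genes were is shown by the plot of their adjusted p under each setting. Cyp2u1 remained below 0.05 in all settings plotted, at 0.018 or less with all 8 libraries, whereas Cyp2j6 crossed 0.05 in 8 of them. Scaling by the spike-ins is left out of the plot, because limma then gave every gene the variance of the trend and its p for Cyp2u1 no longer measured that gene's own spread. With that scaling Cyp2u1 had 8.88 to 76.3 normalized reads in Con-Veh and 91.6 to 381 in Con-DHT, still without overlap (exact permutation p = 0.029).

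**Figure D4:**
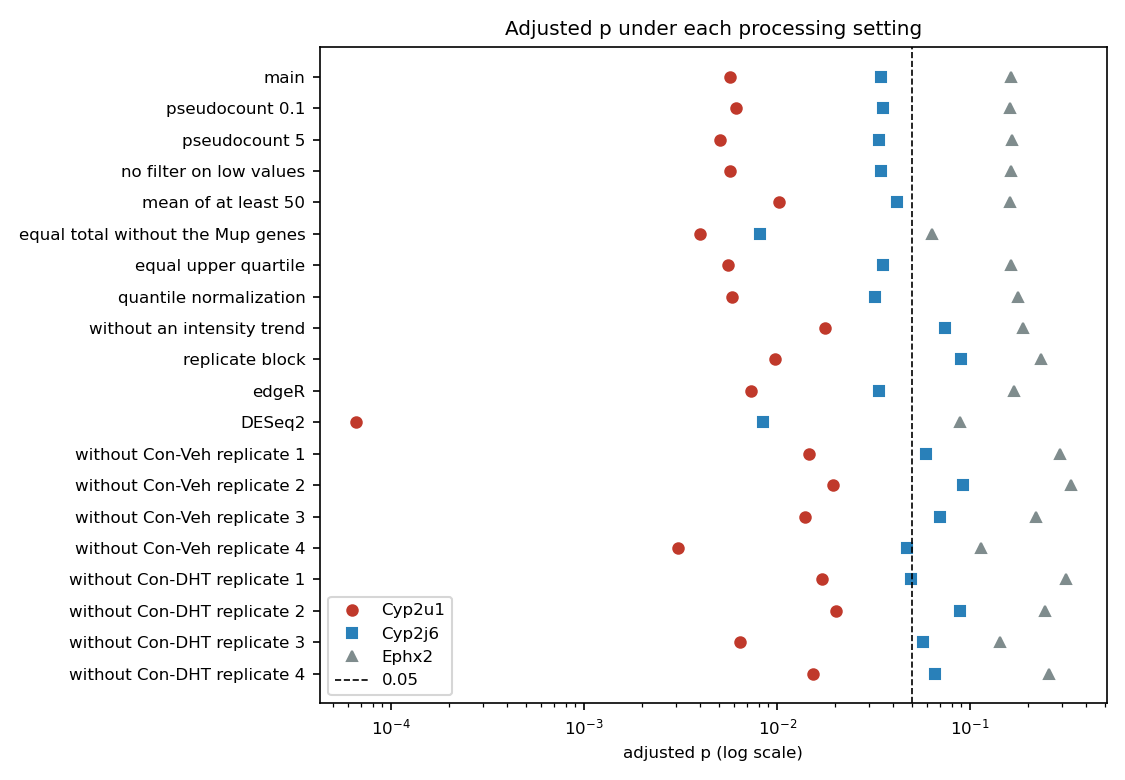
Adjusted p (horizontal axis, log scale) of Cyp2u1, Cyp2j6 and Ephx2 under each processing setting (rows), with a dashed line at 0.05. Cyp2u1 stays left of the line throughout, between 6.5e-05 and 0.020, Cyp2j6 lies on either side of it, and Ephx2 stays right of it, with 0.064 as its lowest value.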

How the data were processed

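Liver RNA of 8 female mice, 4 per group, was measured by RNA-seq, and samples were grouped by the labelled treatment. Further details of the mouse line are not reported here. The submitters' processing notes and the study's methods name Trimmomatic, STAR, featureCounts (Subread) and DESeq2, with GRCm39 as the genome build. The values the authors deposited are a normalized signal: unique exon reads per gene over the library's size factor. Division by the smallest step of each column returned whole reads for 100% of values (tolerance 0.001). The steps matched DESeq2's size factors. The 14371 features, 54 of them spike-ins, held no feature under 81 reads in total, so weakly expressed genes were absent before testing.

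Genes whose mean reached 10 were tested on log2(value + 1) by limma 3.58.1 (R 4.3.3, eBayes with trend) and Benjamini-Hochberg adjustment. Fold changes are on that scale, which understates those of low genes. Cyp4a12a, Cyp4a12b, Lrp2 and Mboat1 had Con-Veh means below 10 and so met the filter only through Con-DHT. edgeR 4.0.16 (quasi-likelihood test) and DESeq2 1.42.0 were alternatives on the recovered reads. Intervals are at 95% and spreads are SDs over mice. Exact permutation tests used all 70 arrangements of 4 against 4. Also tried were pseudocounts of 0.1 and 5, a filter at 50 or none, 4 other scalings, no intensity trend, the replicate number as a block and leaving out each library. Scripts were tested on simulated data. Permutations and plots used scipy 1.17.1 and matplotlib 3.10.9. The 12 same-group pairs of libraries differed far beyond sampling noise, so none was a duplicate.

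The members and lists were chosen with earlier results of these data known. Named were every member, the called genes of each list (at most 4 in each direction), further family members, the nearest tested gene on each side and the 3 genes most correlated with each member. Por, Ppara, Gc, Cyp27a1, Cyp2c29, Cyp2c37 and Cyp2c23 were named outside this rule. The hepatocyte, macrophage, endothelial and stellate cell marker lists are given as sums, with the markers that limma called named. Symbols, positions and exon lengths came from GENCODE M21 (GRCm38) by Ensembl identifier, which matched 14287 of the 14317 mouse genes. Exon overlaps were taken from the same annotation. Promoters came from RefSeq.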

Additional observations from a re-analysis of the deposited data

How the results depend on the processing

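The number of genes called among the 7 was 2 in 9 of 12 settings with all libraries. It was 1, Cyp2u1 alone, under spike-in scaling, without an intensity trend and with the replicate block. It was between 1 and 2 when each library was left out. The calls under spike-in scaling, here and over all genes, rest on p-values that did not measure each gene's own spread. The labels give the same replicate numbers to both groups, but mice with the same number did not deviate together (correlations from -0.19 to -0.0060), so the block tests only a shared number. It gave 700 calls among all genes, an adjusted p of 0.0097 for Cyp2u1 and 0.090 for Cyp2j6. The count over all genes, 1032, was 648 with a mean of at least 50, 640 with spike-in scaling, 1569 with DESeq2 and 633 to 905 with a library left out. Spike-in scaling shifted the median of all genes to 0.20 on the log2 scale and gave 566 higher and 74 lower calls, and an equal total without the Mup genes gave 1082 and 208, against 658 and 374. A change of sign was seen for Cyp2r1 (0.035 with spike-in scaling) and for the log2 ratio of Ephx1 to Ephx2 (-0.09 with all libraries, 0.029 without Con-DHT replicate 1, and -0.22 at its lowest, without Con-DHT replicate 3). The other 6 genes kept their direction in every setting run. The cause of these changes was not tested. Reads on Cyp2u1 numbered 10 to 59 in Con-Veh, which limits its fold, and weakly expressed genes were not analysed here.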

Other observations

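The genes whose values were most like each member over the 8 libraries are given as Pearson's r of log2(value + 1), a description over libraries that share the 2 groups. Cyp2u1 ran closest with Kidins220 (r = 0.988), a scaffold protein of neurotrophin signalling, Smarcad1 (0.988), a chromatin remodeller, and Lztr1 (0.977). Of these, Smarcad1 and Lztr1 were not called by limma (adjusted p of 0.14 and 0.062). The Con-Veh mean of Kidins220 was 947 normalized reads and its Con-DHT mean 1179. Cyp2j6 ran closest with Hykk (0.975), a hydroxylysine kinase, St3gal3 (0.972), a sialyltransferase, and Gm9774 (0.966). Cyp2j5 ran closest with Tstd1 (0.971), Tlcd2 (0.970) and Sdha (0.968), a subunit of succinate dehydrogenase. Ephx2 ran closest with Sobp (0.984), Ptprs (0.975) and Ston1 (0.972), and Ephx1 with Arhgap39 (0.947), Invs (0.946) and Gcat (0.935). Cyp2j9 ran closest with Stk40 (0.977), Gm10275 (0.959) and 1700017B05Rik (0.948), and Cyp2r1 with Helb (0.943), Tom1 (0.933) and Trim11 (0.932).

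Among the 7 genes themselves, Cyp2j9 and Cyp2r1 had r = 0.816 over the 8 libraries and 0.795 after each group's mean was removed. Cyp2j5 and its neighbour Cyp2j9 ran in opposite directions from mouse to mouse, with r of -0.747 over the 8 libraries and -0.762 within groups. Cyp2u1 and Ephx2 had r = 0.869 over the 8 libraries and 0.664 within groups. These 3 pairs were picked from 21 after their values were seen, and the 8 libraries are too few to rank them.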
